A study of Danio rerio with 4 samples.

Results

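Of the 10 phototransduction genes chosen by symbol, 9 were found in the gene tables of zebrafish heads at 5 days post-fertilization (dpf), among 25196 genes of the Ribo-seq table. They are the rod genes gnat1 and saga, the cone genes gnat2, gnb3b, pde6c, arr3a, arr3b and grk7a, and gnb1b, which was assigned to neither photoreceptor because its G protein subunit is used in many cells. The symbol pde6h was not found and was dropped. An annotation table lists it as another name of pde6ha, which is described with the wider pathway. Symbols were matched in the Ribo-seq table and joined to the RNA-seq table by Ensembl gene ID, and all 9 genes passed the count minimum in both assays.

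The libraries came from noc4l mutants and from their siblings, all of the AB strain. The mutants carry a CRISPR/Cas9 deletion in the fourth exon of noc4l, which encodes a nucleolar protein of small ribosomal subunit assembly, and the deletion truncates the protein. The siblings are labelled wild type in the sample records. Heads were used for poly(A) RNA-seq and, as a separate collection, for Ribo-seq, in which ribosome-protected fragments (footprints) are sequenced. The sample records give the poly(A) library protocol for the Ribo-seq libraries as well, while the study's methods describe nuclease digestion and a sucrose gradient for them. The footprint and translation efficiency values here rest on the description in the methods. How many heads went into a library is not stated, and a head holds many tissues beside the retina. Maternally deposited noc4l may have carried the mutants through early development.

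Each of the 4 libraries was the only one of its genotype and assay. No spread between fish could be measured, so no test was made, and the 95% intervals given here cover counting error only. noc4l itself had 45 RNA counts in the mutant library and 443 in the sibling library, and its log2 ratio was -3.58 (-4.07 to -3.15). Library totals ranged from 12181046 to 19823848 counts. The 4 most abundant loci of the Ribo-seq table took 18.98% of the footprint counts in the mutant library and 51.07% in the sibling library. Counts were therefore scaled by TMM, a method that sets the bulk of genes equal, and are given as scaled CPM, counts relative to the scaled library total. The study reported fewer polysomes and less nascent protein synthesis in the mutants. A fall in translation shared by most genes would not show on this scale, which gives the place of a gene relative to the others. In whole heads, fewer cells of a type and less RNA per cell cannot be told apart.

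In phototransduction, light-activated opsin switches on the G protein transducin, and transducin releases the inhibition of a cGMP phosphodiesterase. The fall in cGMP closes cation channels and changes transmitter release. Opsin kinases and arrestins then shut the opsin off. Rods and cones use separate genes for most of these steps, and larval zebrafish vision depends mainly on cones.

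On the TMM scale, RNA of most of the 9 genes was below the sibling level in the mutant library. Their footprints were close to the sibling level on that scale. The cone arrestin gene arr3b was the only one with a 2-fold difference in RNA, 2.80-fold lower in the mutant library. For both cone arrestin genes the footprint level relative to RNA was at least 2-fold higher in the mutant library. In RNA, 0 of the 9 genes were higher and 1 was lower at 2-fold. Of 17243 genes measured, 3.14% were higher and 6.16% were lower. In footprints none of the 9 passed 2-fold in either direction, against 1.89% higher and 3.61% lower of 15729 genes. In translation efficiency, the ratio of footprint to RNA levels, 2 were higher and 0 lower, against 3.55% higher and 3.18% lower of 14455 genes.

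**Figure D1:**
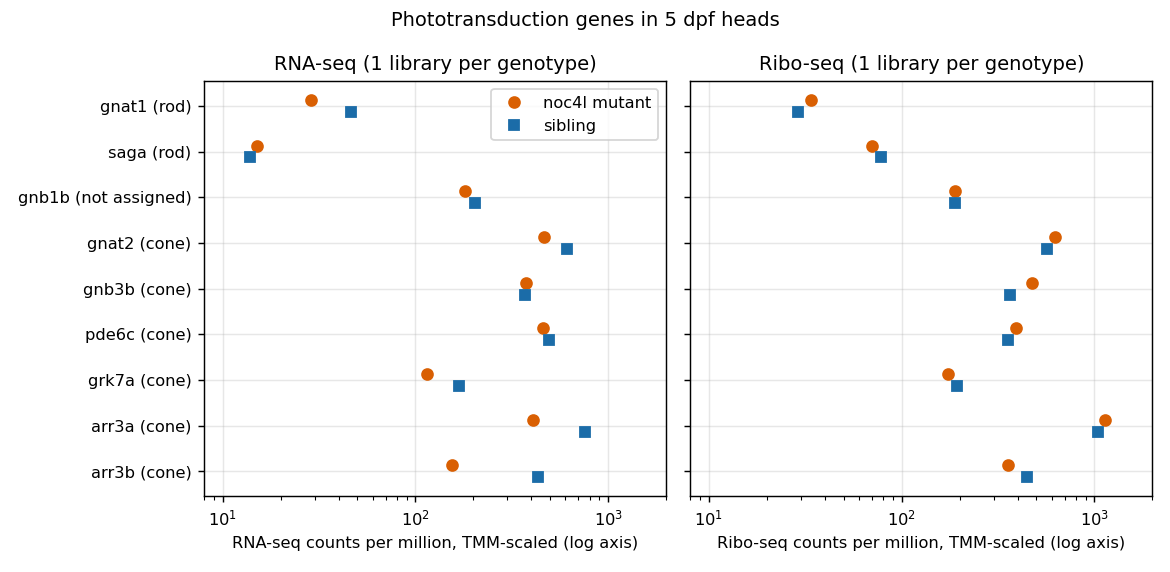
TMM-scaled CPM of the 9 phototransduction genes (log axis) in RNA-seq on the left and Ribo-seq on the right, with the noc4l mutant library as circles above the sibling library as squares. In RNA the mutant circle of arr3b lies at 154 and its sibling square at 432, while the footprint symbols of most genes nearly coincide.

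The median log2 ratio of mutant to sibling over the 9 genes was -0.39 in RNA, against 0.01 over all genes measured. The 9 values spanned -1.48 to 0.11, and 7 were below 0. In footprints the median was 0.13, against 0.02 over all genes, with values from -0.34 to 0.38. The spread of the 9 genes was thus 1.60 log2 units in RNA, with arr3b at the lower end, and 0.73 in footprints. The quartiles of all genes were also closer together in footprints, at -0.22 and 0.25, than in RNA, at -0.28 and 0.28. In translation efficiency the median was 0.39, against -0.01 over all genes, and 8 of 9 values were above 0. This last ratio contains the RNA ratio, so it is not a separate measurement of it. The 9 genes together held 0.227% of RNA counts in the mutant library and 0.301% in the sibling library. Their summed scaled level was 2204 CPM in mutant RNA against 3095 CPM in sibling RNA, and 3453 CPM in mutant footprints against 3271 CPM in sibling footprints.

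**Figure D2:**
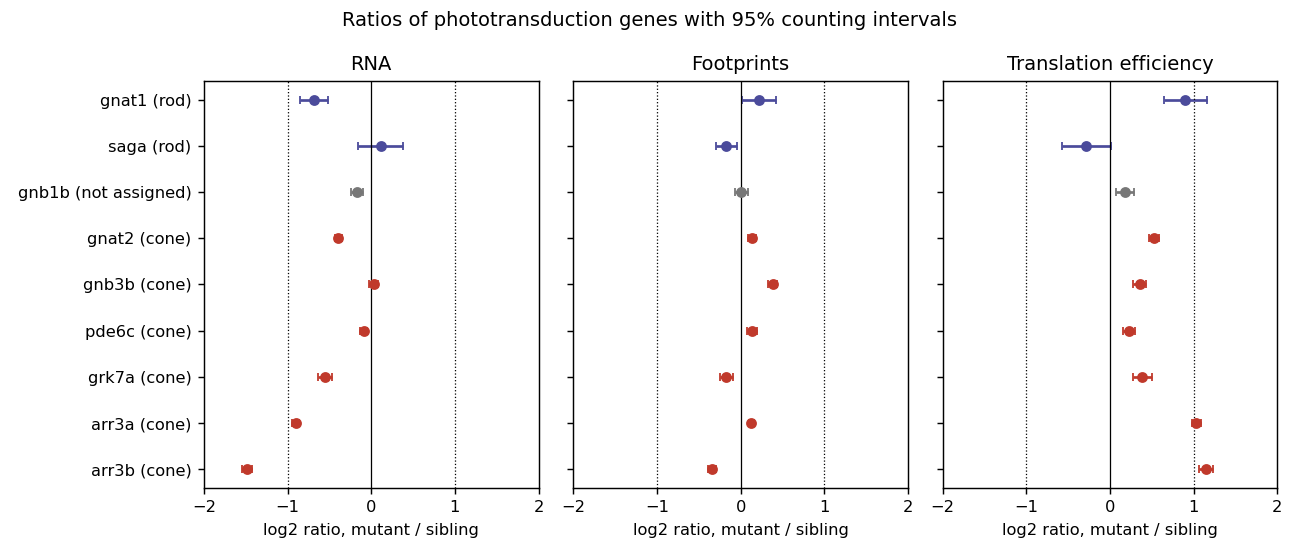
Log2 ratios of mutant to sibling for the 9 genes in RNA, footprints and translation efficiency, with 95% counting intervals as bars and 2-fold limits as dotted lines. arr3b passes the lower limit in RNA at -1.48, no gene passes in footprints, and arr3a and arr3b pass the upper limit in translation efficiency at 1.03 and 1.14. Scaling by total counts puts all 9 footprint ratios above 0.

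The footprint direction of individual genes depended on scaling. With total counts in place of TMM the median footprint ratio of all genes was 0.74, and all 9 genes were then above 0. On that scale 1 of the 9 was higher in footprints and 0 lower, against 22.1% higher and 1.27% lower of all genes, and 5 were higher in translation efficiency and 0 lower, against 20% and 0.83%. With the deposited FPKM and TPM, levels corrected for transcript length and library size, 6 were higher in footprints and 0 lower, against 44.6% and 0.782% of all genes. In translation efficiency 8 were then higher and 0 lower, against 36.4% and 0.256%. The values below are relative to the TMM scale, on which the median gene is near 0. Differences between pairs of genes in counts within an assay, also given below, do not depend on scaling, but they can differ in the deposited units. In the deposited TPM the footprint differences from gnat2 were 0.35 for gnb3b, 0.095 for pde6c, 0.087 for arr3a and -0.21 for grk7a. These lay outside the counting intervals given below, and that of gnat1, 0.17, lay inside. All of these differences share gnat2. Its footprint counts per TPM were 25.5 in the mutant library and 18.9 in the sibling library. Those of arr3a were 25.9 in the mutant library and 20.5 in the sibling library. The step from counts to TPM thus differed more between the libraries for gnat2 than for arr3a.

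gnat1 and gnat2 encode the transducin alpha subunits of rods and cones. RNA of gnat1 was 28.7 CPM in the mutant library (514 counts) and 46.2 CPM in the sibling library (674 counts). Footprints of gnat1 were 33.9 CPM in the mutant library and 29.1 CPM in the sibling library. The log2 ratio was -0.68 in RNA (-0.85 to -0.52) and 0.22 in footprints (0.02 to 0.42). Thus gnat1 was below the sibling level in RNA and slightly above it in footprints, and its translation efficiency ratio of 0.90 (0.64 to 1.16) stayed just under 2-fold. Its footprint counts were not whole numbers (860.22 in the mutant library and 277.26 in the sibling library). The intervals leave out how reads that match several genes were counted.

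RNA of gnat2 was 466 CPM in the mutant library (8347 counts) and 612 CPM in the sibling library (8933 counts). Its footprints were 627 CPM in the mutant library and 570.2 CPM in the sibling library. The cone gene had ratios of the same signs as the rod gene and of smaller size, with log2 ratios of -0.39 in RNA (-0.44 to -0.35), 0.14 in footprints (0.09 to 0.18) and 0.53 in translation efficiency (0.47 to 0.59). Set directly against gnat2, gnat1 differed by -0.29 in RNA (-0.46 to -0.12). In footprints the difference was 0.08 with an interval across 0 (-0.12 to 0.28). Both intervals cover counting error only. Without replicate libraries, neither difference between these genes can be read as one between rods and cones.

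gnb1b and gnb3b encode transducin beta subunits, the second the cone form. RNA of gnb1b was 182 CPM in the mutant library and 204 CPM in the sibling library, and its footprints were 189.7 CPM in the mutant library and 189 CPM in the sibling library. It was among the least different of the 9 genes, at -0.17 in RNA (-0.24 to -0.10) and 0.01 in footprints (-0.07 to 0.08). The RNA sign of gnb1b turned to 0.10 with the deposited FPKM. gnb3b was the gene with the largest positive footprint ratio, with 477 CPM in the mutant library against 366 CPM in the sibling library. Its RNA was 376 CPM in the mutant library against 369 CPM in the sibling library. The log2 ratios of gnb3b were 0.03 in RNA (-0.02 to 0.08) and 0.38 in footprints (0.33 to 0.44), so that RNA was at the sibling level and footprints were above it.

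As a result the cone beta subunit gene stood higher relative to the cone alpha subunit gene in the mutant libraries. The difference between gnb3b and gnat2 was 0.42 in RNA (0.35 to 0.49) and 0.25 in footprints (0.18 to 0.32). Per transcript length, the level of gnb3b was 0.994 of that of gnat2 in mutant RNA and 0.789 in sibling RNA, in FPKM. In Ribo-seq TPM it was 0.794 in the mutant library and 0.623 in the sibling library.

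pde6c encodes the catalytic subunit of the cone phosphodiesterase, the effector of transducin. Its RNA was 461 CPM in the mutant library and 491 CPM in the sibling library, and its footprints were 391 CPM in the mutant library and 356 CPM in the sibling library. The log2 ratios were -0.09 in RNA (-0.14 to -0.04), 0.14 in footprints (0.08 to 0.19) and 0.23 in translation efficiency (0.16 to 0.30). pde6c thus differed little in either assay. Its footprint difference from gnat2 was 0.00 (-0.07 to 0.07).

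The inhibitory subunit of the same enzyme behaved differently in RNA. pde6ha, which carries pde6h as a synonym, had 80.3 CPM of RNA in the mutant library (1436 estimated counts) and 257 CPM in the sibling library (3749 estimated counts). Its footprints were 457 CPM in the mutant library and 497 CPM in the sibling library. The RNA log2 ratio was -1.68 (-1.77 to -1.59), 3.2-fold lower in the mutant library, and the footprint ratio was -0.12 (-0.17 to -0.07). The translation efficiency ratio of 1.56 (1.46 to 1.66) was at percentile 99.2 of all genes. The RNA counts of pde6ha were not whole numbers (1436.46 in the mutant library and 3748.79 in the sibling library). Its footprint counts were whole (11602 in the mutant library and 4727 in the sibling library). How reads that match several genes were counted is not stated, and the intervals leave this out. Against pde6c, the ratio of pde6ha differed by -1.59 in RNA (-1.69 to -1.49) and by -0.26 in footprints (-0.33 to -0.18). The mutant to sibling ratios of these subunit genes were thus far apart in RNA and much closer in footprints.

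grk7a encodes the cone opsin kinase, which phosphorylates active opsin before arrestin binds. It had 115 CPM of RNA in the mutant library and 169 CPM in the sibling library, and 173 CPM of footprints in the mutant library and 195 CPM in the sibling library. The log2 ratio was -0.56 in RNA (-0.64 to -0.47) and -0.17 in footprints (-0.25 to -0.09). With total counts it was 0.54 in footprints, below the median of all genes on that scale (0.74). Relative to gnat2, grk7a was lower by both measures, at -0.16 in RNA (-0.26 to -0.07) and -0.31 in footprints (-0.40 to -0.22).

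The arrestin genes differed most from one another. arr3a and arr3b encode cone arrestins, arr3a in the red- and green-sensitive cones and arr3b in the blue- and ultraviolet-sensitive cones of zebrafish. RNA of arr3a was 406 CPM in the mutant library (7259 counts) and 758 CPM in the sibling library (11069 counts). RNA of arr3b was 154 CPM in the mutant library (2761 counts) and 432 CPM in the sibling library (6303 counts). These were the lowest RNA ratios of the 9 genes, at -0.90 for arr3a (-0.95 to -0.86) and -1.48 for arr3b (-1.55 to -1.42), or percentiles 7.10 and 3.47 of all genes.

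Footprints of arr3a were 1137 CPM in the mutant library and 1039 CPM in the sibling library, a log2 ratio of 0.13 (0.10 to 0.16). Footprints of arr3b were 354 CPM in the mutant library and 449 CPM in the sibling library, a log2 ratio of -0.34 (-0.39 to -0.29). With total counts it was 0.37, below the median of all genes on that scale (0.74). The large RNA differences were therefore reduced or not seen in footprints. The translation efficiency of arr3a, in footprint CPM per RNA CPM, was 2.80 in the mutant library and 1.37 in the sibling library. That of arr3b was 2.3 in the mutant library and 1.04 in the sibling library. Both ratios were past 2-fold, at 1.03 for arr3a (0.98 to 1.09) and 1.14 for arr3b (1.06 to 1.23). The value of arr3a lies at the limit, and it was 0.94 with totals that left out the 4 most abundant loci, so only arr3b was then higher and 0 were lower, against 2.71% higher and 4.19% lower of all genes.

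The step between the cone arrestins was similar in both assays. The ratio of arr3b minus that of arr3a was -0.58 in RNA (-0.66 to -0.50) and -0.47 in footprints (-0.53 to -0.41). Per transcript length, arr3b was at 0.369 of the level of arr3a in mutant RNA and 0.555 in sibling RNA. In footprint TPM it was at 0.362 in the mutant library and 0.50 in the sibling library. arr3a against gnat2, by contrast, differed by -0.51 in RNA (-0.57 to -0.45) and by -0.01 in footprints (-0.06 to 0.05).

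saga, a rod arrestin gene (S-antigen), did not follow the cone arrestins. It had 15.0 CPM of RNA in the mutant library (269 counts) and 13.9 CPM in the sibling library (203 counts), the lowest counts of the 9 genes. Its footprints were 69.8 CPM in the mutant library and 78.5 CPM in the sibling library. The log2 ratios were 0.11 in RNA with an interval across 0 (-0.16 to 0.38), and -0.17 in footprints (-0.29 to -0.04). It was the single gene of the 9 with a translation efficiency ratio below 0, at -0.28, with an interval that reached 0.01 (-0.57 to 0.01). Total counts turned both its footprint ratio and its translation efficiency ratio positive, to 0.54 and 0.35. Both stayed below the medians of all genes on that scale, 0.74 and 0.62. With the deposited FPKM and TPM its translation efficiency ratio was 1.09, past 2-fold and above the median of all genes in those units (0.86). Its footprint ratio was 0.89 there, below the median of all genes (0.95). The place of saga below the other genes in translation efficiency thus depended on the unit.

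The RNA value of saga also depended on the unit. In the deposited FPKM it was 7.52 in the mutant library and 8.81 in the sibling library, a log2 ratio of -0.20 with 1 added. The transcript length implied by its count and FPKM was 2056 bases in the mutant library and 1534 bases in the sibling library, so the length correction differed between the libraries. The implied length of gnb1b was 2265 bases in the mutant library and 2579 bases in the sibling library. That of gnb3b was 1761 bases in the mutant library and 1656 bases in the sibling library. The other 6 genes had the same implied RNA length in both libraries to within 1%. Relative to arr3a, saga was higher by 1.01 in RNA counts (0.75 to 1.28) and by 0.59 in FPKM. In footprints the difference was -0.30 (-0.43 to -0.17).

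**Figure D3:**
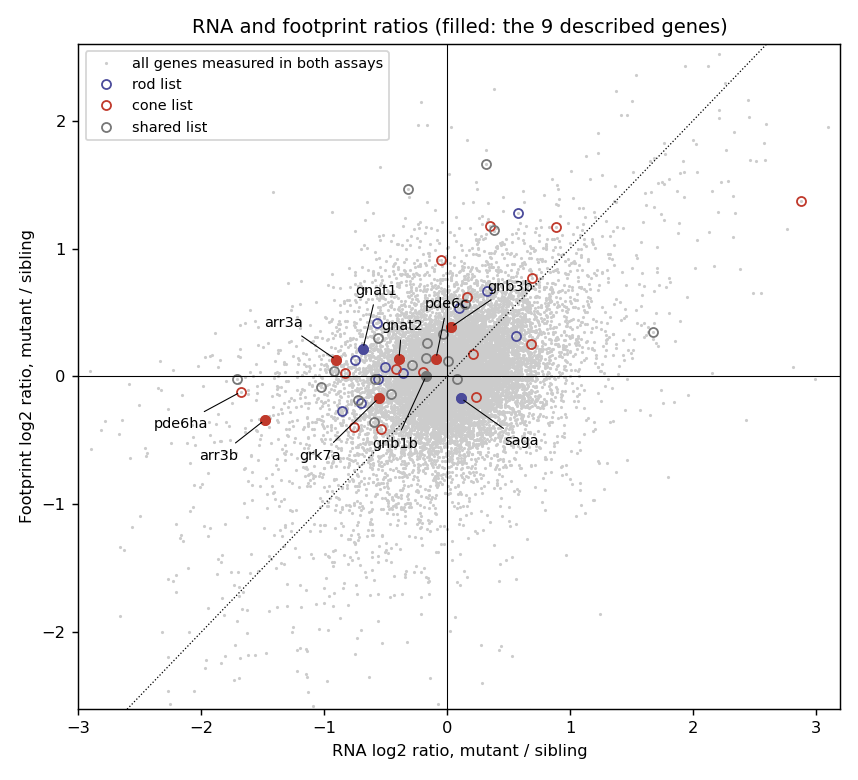
Footprint log2 ratio against RNA log2 ratio (mutant to sibling) for the 14455 genes measured in both assays (grey), with genes of the rod, cone and shared phototransduction lists as open circles and the 9 genes filled. The dotted diagonal marks equal ratios, 126 genes lie beyond the axes, and 8 of the 9 filled circles lie above the diagonal, with saga below it.

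Rods and cones were compared first over the 9 genes. The median RNA ratio was -0.29 for the 2 rod genes and -0.47 for the 6 cone genes, a difference of 0.19 (0.03 to 0.35). The 2 rod genes stood 0.80 log2 units apart in RNA (0.49 to 1.11 for saga minus gnat1), far more than this difference. Their order was the reverse in footprints, where saga minus gnat1 was -0.39 (-0.62 to -0.16). The median footprint ratio was 0.02 for the rod genes and 0.13 for the cone genes, a difference of -0.11 (-0.23 to 0.01). In translation efficiency it was 0.31 for the rod genes and 0.46 for the cone genes, a difference of -0.15 (-0.35 to 0.06). These differences depended on the choice of genes and settings. With gnb1b counted among the rod genes they were 0.30 in RNA (0.22 to 0.39), -0.13 in footprints (-0.21 to -0.04) and -0.28 in translation efficiency (-0.41 to -0.16). The differences in RNA and in translation efficiency were then each more than 1.5 times as large. The middle gene of that rod set was gnb1b itself in each assay. These values thus set gnb1b, which was assigned to neither photoreceptor, against the cone median. With 5 counts added in place of 0.5, the footprint difference of the members was -0.12, and its interval (-0.24 to -0.0018) narrowly left out 0. With the deposited FPKM, the RNA difference of the members was -0.0020 (-0.16 to 0.16), so it was seen in counts only.

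In counts, the RNA direction was the reverse over the wider lists of rod and cone genes, which hold these members. There the median was -0.54 for 14 measured rod genes and -0.09 for 21 measured cone genes, a difference of -0.44 (-0.66 to -0.23). The interval covers counting error of the middle genes only and leaves out the spread between genes. RNA ratios ran from -0.85 to 0.57 in the rod list and from -1.68 to 2.88 in the cone list. The footprint medians were 0.13 for rod genes and 0.14 for cone genes, a difference of -0.01 (-0.33 to 0.32). The RNA difference in counts thus had opposite signs in the members and in the wider lists. In footprints it was below 0 in each set. The interval left out 0 with gnb1b, whose own value was then the rod median, and included 0 over the wider lists.

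The levels of the genes within a library were ordered in much the same way in both genotypes. By RNA FPKM the order in the mutant library was arr3a (242), gnat2 (221), gnb3b (219.7), pde6c (105), arr3b (89.3), gnb1b (82.6), grk7a (34.9), gnat1 (15.0) and saga (7.52). In the sibling library it was arr3a (428), gnat2 (274), arr3b (237), gnb3b (216), pde6c (105), gnb1b (77.1), grk7a (48.5), gnat1 (22.8) and saga (8.81). arr3b thus stood in the third place in the sibling library and behind gnb3b and pde6c in the mutant library. With 1 library per group, no spread between samples is known for any step of these orders.

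By footprint TPM within a library, arr3a led in both, at 1113 in the mutant library and 481 in the sibling library. gnat1 was the lowest in both, at 33.8 in the mutant library and 13.8 in the sibling library. The rod genes changed places between the assays, since saga had 62.4 TPM in the mutant library and 33.2 TPM in the sibling library. In translation efficiency, saga had 4.64 footprint CPM per RNA CPM in the mutant library (percentile 98.2 of all genes) and 5.65 in the sibling library (percentile 98.8). These TPM are shares of totals that include the abundant loci, so they are set side by side within a library only.

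The wider phototransduction pathway was described from lists of 18 rod, 24 cone and 26 shared genes. The counts of these lists stand beside 3.14% higher and 6.16% lower of all genes in RNA. In footprints the shares of all genes were 1.89% higher and 3.61% lower, so single genes of a list are near these shares. In the rod list, 0 of 14 measured genes were higher and 0 were lower in RNA, and 9 of the 14 ratios were below 0. In footprints 1 of 17 was higher, rom1b, which encodes a disc rim protein. It had 336 RNA counts in the mutant library and 184 in the sibling library (0.57), and 695 footprint counts in the mutant library and 107 in the sibling library (1.28, 0.99 to 1.59). The rod opsin gene rho had 4921 RNA counts in the mutant library and 5154 in the sibling library, with log2 ratios of -0.36 in RNA and 0.03 in footprints. The other rod arrestin gene, sagb, was at -0.70 in RNA and -0.21 in footprints, unlike saga in RNA. The rod transducin gamma gene gngt1 was at -0.57 in RNA and 0.42 in footprints.

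In the cone list, 1 of 21 genes was higher and 2 were lower in RNA, and 4 of 22 were higher and 0 lower in footprints. The lower genes were arr3b and pde6ha. The opsin genes covered the widest range of the list. The green opsin gene opn1mw2 had 535 RNA counts in the mutant library and 59 in the sibling library, a log2 ratio of 2.88 (2.50 to 3.30), and a footprint ratio of 1.37 (0.94 to 1.83). opn1mw1, a more abundant green opsin gene, had 10011 RNA counts in the mutant library and 6419 in the sibling library (0.35), and its footprint ratio was 1.17 (1.11 to 1.24).

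The red opsin gene opn1lw2 had 14408 RNA counts in the mutant library and 6369 in the sibling library (0.88), and its footprint ratio was 1.17 (1.10 to 1.24). opn1lw1, the other red opsin gene, was under the RNA minimum with 4.01 counts in the mutant library and 3.01 in the sibling library. Its footprint counts were 184 in the mutant library and 13.3 in the sibling library (2.32, 1.60 to 3.34). The ultraviolet opsin gene opn1sw1 had 12734 RNA counts in the mutant library and 13871 in the sibling library, with ratios of -0.42 in RNA and 0.06 in footprints. The blue opsin gene opn1sw2 lay between these, with 5792 footprint counts in the mutant library and 1411 in the sibling library (0.62, 0.54 to 0.71) and an RNA ratio of 0.16. On the TMM scale, footprints of all 4 measured green and red opsin genes were higher at 2-fold, against 1.89% of all genes. Those of the blue and ultraviolet opsin genes did not pass 2-fold on that scale. The green opsin genes, and likewise the red opsin genes, are close copies. How reads that match several copies were counted is not stated, so their individual values are uncertain.

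In the shared list, 1 of 21 genes was higher and 2 were lower in RNA, and 3 of 21 were higher and 0 lower in footprints. Among the guanylate cyclase activators, calcium sensors of recovery after light, guca1a had 41 RNA counts in the mutant library and 110 in the sibling library (-1.71, -2.27 to -1.19), and guca1c was at -1.02 (-1.22 to -0.83), so close to the limit that only 1 gene of the list was lower with total counts. The footprint ratios of both were near 0, at -0.02 and -0.08, the same pattern as in arr3a and pde6ha. guca1g differed the other way, with 130 footprint counts in the mutant library and 15 in the sibling library (1.66, 0.92 to 2.58). aipl2, a relative of the phosphodiesterase chaperone gene aipl1, had 115 RNA counts in the mutant library and 29 in the sibling library (1.68, 1.10 to 2.33).

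The recoverin gene rcvrnb had 276 footprint counts in the mutant library and 37 in the sibling library (1.47, 0.98 to 2.02), with an RNA ratio of -0.32. The disc rim gene prph2b had a footprint ratio of 1.14 (1.01 to 1.28) and an RNA ratio of 0.38. The abundant recoverin gene rcvrn3 was at -0.59 in RNA and -0.02 in footprints. gnb1a, the other copy of the widely used beta subunit, was at 0.08 in RNA and -0.02 in footprints. It was close to gnb1b in footprints (0.01) and above it in RNA (-0.17). The footprint calls of the rod, cone and shared lists rested on the TMM scale. With total counts 7 of 17, 8 of 22 and 7 of 21 genes of these lists were higher, against 22.1% of all genes.

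**Figure D4:**
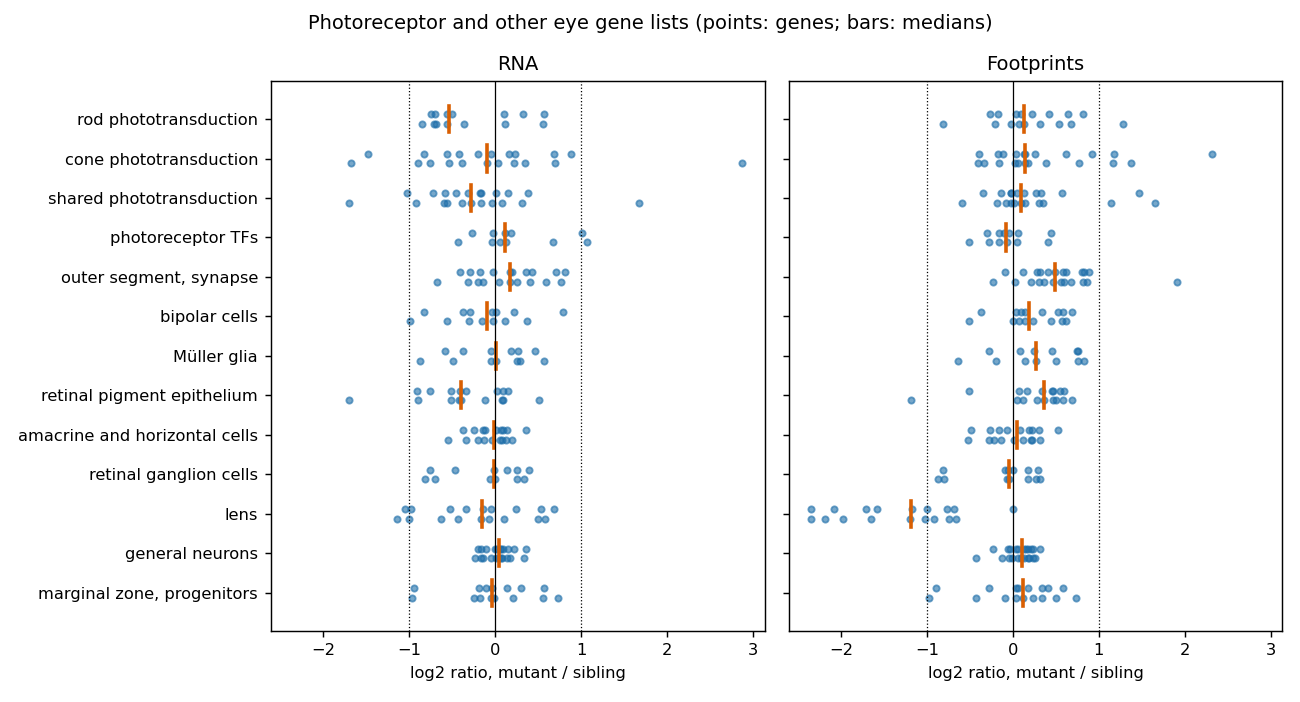
Log2 ratios of mutant to sibling in RNA and footprints for each measured gene of 13 gene lists (points), with list medians as bars and 2-fold limits as dotted lines. The rod list has the lowest RNA median (-0.54), and the lens list stands apart in footprints with a median of -1.18.

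Other photoreceptor and eye genes were described in the same way, as the libraries are of whole heads. Of all genes, 3.14% were higher and 6.16% lower in RNA, and 1.89% higher and 3.61% lower in footprints. Of the photoreceptor transcription factors, 2 of 11 were higher in RNA and none in footprints. They were thrb, the thyroid hormone receptor gene needed for red cones, at 1.01 (0.79 to 1.22) from 616 counts in the mutant library and 250 in the sibling library, and samd7 at 1.07 (0.70 to 1.45). The abundant factor genes neurod1, tbx2b and rorab were at -0.03, 0.13 and -0.43 in RNA. In the outer segment and synapse list, 0 of 20 genes passed 2-fold in RNA and 1 of 23 was higher in footprints, with medians of 0.17 in RNA and 0.49 in footprints. The gene was cacna1fa, a calcium channel gene of the photoreceptor synapse, with 134 footprint counts in the mutant library and 13 in the sibling library (1.90, 1.13 to 2.90). The abundant genes rs1a, syt5b and atp1b1b were at 0.25, 0.43 and -0.20 in RNA, and at 0.62, 0.82 and 0.21 in footprints.

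Lists for the other cell types of the eye and for neurons showed how far the differences of the 9 genes were shared. No gene passed 2-fold in RNA or footprints in the lists of bipolar cells, Müller glia, amacrine and horizontal cells, retinal ganglion cells, general neurons or retinal progenitors. Their RNA medians lay between -0.10 and 0.05. The pigment epithelium list had an RNA median of -0.39, close to that of the 9 genes, with 1 of 17 genes lower, against 6.16% of all genes. The translation efficiency median of the pigment epithelium list was 0.54, with 2 of 17 genes higher. That of the bipolar cell list was 0.39, with 3 of 14 higher, and 3.55% of all genes were higher. Medians at or above that of the 9 genes were thus also found outside phototransduction. In lens genes, 3 of 18 were lower in RNA and 11 of 18 in footprints, against 6.16% and 3.61% of all genes. Their summed footprint level was 3428 CPM in the mutant library and 8530 CPM in the sibling library. The part of the lens difference in the scaled values of the 9 genes was not tested.

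**Figure D5:**
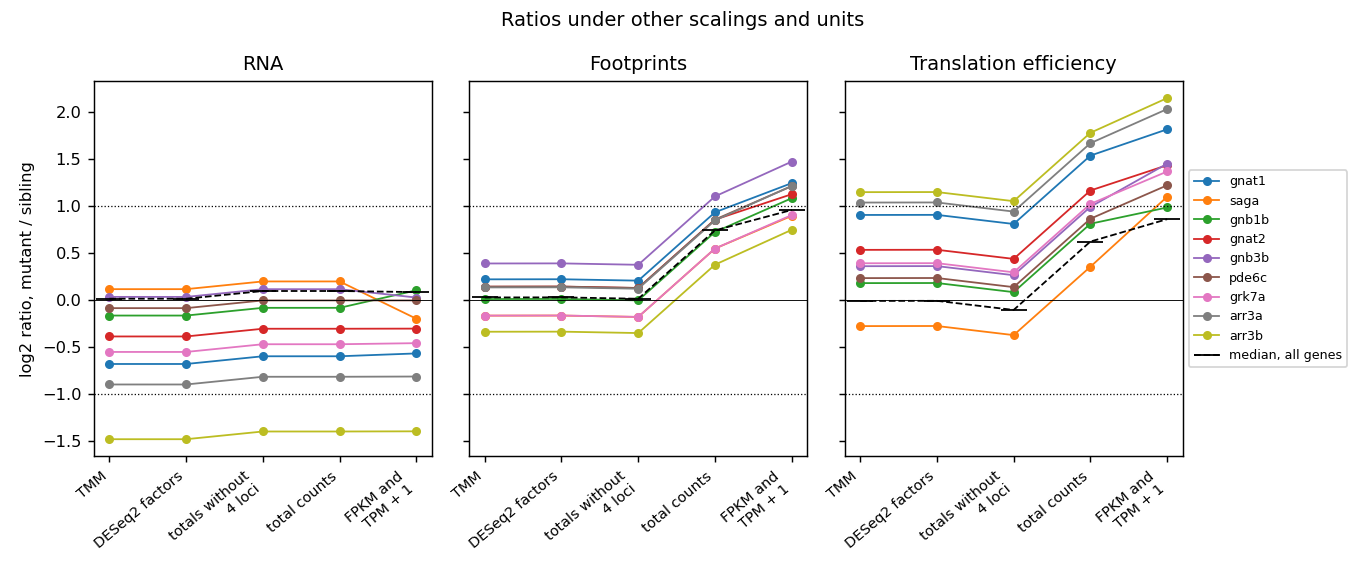
Log2 ratios of mutant to sibling for the 9 genes in RNA, footprints and translation efficiency under 5 scalings or units, with the median of all genes as a dashed line. In footprints, total counts raise the median of all genes to 0.74 and that of the 9 genes to 0.84, and the order of the genes in counts is the same under each scaling.

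The genes whose ratios lay nearest to the median of the 9 genes in both assays were spag1a, id4, cox17, tmsb, dpp7, pfdn1, fam107b and rpn2. They were found by the Euclidean distance to that median in the RNA and footprint log2 ratios, among 11551 genes, and none is in a list used here. spag1a, the nearest, was at -0.39 in RNA and 0.14 in footprints. The measure covers a single comparison of libraries in each assay, so many genes lie close to any such point.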

How the data were processed

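Heads of noc4l mutants and siblings at 5 dpf were profiled by RNA-seq and Ribo-seq, with 1 library each. Alignment with HISAT2 and counting with featureCounts are named in the submitters' processing notes, and versions, build and annotation are not given in the sources used. Both tables hold an estimated count per gene and library as deposited by the authors, not always a whole number. The authors deposited FPKM beside the RNA-seq counts and TPM beside the Ribo-seq counts. The fold change, P and FDR columns of the authors were not used. A Ribo-seq row without an ID (0.000746% of mutant and 0.00303% of sibling counts) was left out.

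TMM factors from edgeR 4.0.16 in R 4.3.3 set the scale of each library, at 1.03 for mutant and 0.972 for sibling RNA, and 1.28 for mutant and 0.781 for sibling footprints. Log2 ratios were taken after adding 0.5 counts. A gene was measured from 100 counts summed over mutant and sibling, in each assay for translation efficiency. Higher or lower means a ratio of at least 2. Intervals (95%) are exact conditional binomial for ratios, and for translation efficiency and differences between genes come from the Poisson error of the counts. They treat reads as independent molecules. For medians and differences of medians, only the counting error of the middle gene or genes entered. Those intervals leave out the spread between the genes of a set. The rest was done in Python 3.11.15 (numpy 2.4.6, pandas 2.3.3, scipy 1.17.1, matplotlib 3.10.9). The scaling and size rule were tested on simulated data.

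The members and the 13 gene lists (246 of 253 genes found, 1 by a synonym) were chosen with earlier results of these data known. The named genes were the members, noc4l, and, of each phototransduction and photoreceptor list, up to 6 genes past 2-fold and up to 3 of the most abundant, with the 8 genes nearest the members' median. Those nearest genes needed a scaled level of 5 CPM in each assay and a symbol other than a clone name. Alternatives were total counts, DESeq2 1.42.0 size factors, count minimums of 10 or none, 5 counts added, FPKM and TPM with 1 added, and other rod and cone sets.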

Additional observations from a re-analysis of the deposited data

How the results depend on the processing

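No paired analysis was possible because each genotype had 1 library per assay. The 2-fold counts of the 9 genes in RNA were the same under each alternative, with a median of -0.31 with total counts or with FPKM. Total counts gave 1 gene higher in footprints (median 0.84) and 5 in translation efficiency (median 1.02), where the medians of all genes were 0.74 and 0.62. FPKM and TPM gave 6 genes higher in footprints (median 1.12) and 8 in translation efficiency (median 1.43), with all-gene medians of 0.95 and 0.86, and a rod minus cone RNA difference of -0.0020. TPM and total counts include the 4 abundant loci, and TMM reduces their weight. Totals without these loci, chosen after seeing the data, left 1 gene higher in translation efficiency. All genes of the rod and cone lists, which hold the members beside other genes, were also compared. The rod minus cone difference was then -0.44 in RNA (-0.66 to -0.23). In translation efficiency it was 0.18, with an interval across 0 (-0.47 to 0.83). Both intervals leave out the spread between genes. DESeq2 size factors, count minimums of 10 or none and 5 added counts moved none of these values beyond the counting error. Of 78 summary values under alternatives, 14 moved. Depth limited saga most, with 269 RNA counts in the mutant library and 203 in the sibling library, and no depth stands in for the missing replicate libraries.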
